A study of Saccharomyces cerevisiae with 16 samples.

Results

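The sulfur and methionine metabolism genes described here number 37, out of 6002 protein-coding ORFs that the annotation places on the 16 chromosomes of the *Saccharomyces cerevisiae* nucleus. They cover sulfate uptake and assimilation (10 genes), homoserine and methionine synthesis (8), the methyl cycle (5), transsulfuration (4), methionine and S-adenosylmethionine (SAM) transport (4) and regulators (6). They were listed by symbol, because *MET* genes were already known from these same peak lists to be lost in *ubc9-6*. The comparison of *ubc9-6* with WT therefore chose the genes, and its values are given below as a description with no test. All 37 symbols matched an ORF of the R64 (sacCer3) annotation.

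The study asked how reduced sumoylation affects the genome-wide distribution of RNA polymerase II (RNAPII), with and without heat shock. RNAPII ChIP-seq was performed with the 8WG16 antibody, which recognizes Rpb1, the largest RNAPII subunit. Ubc9 is the E2 enzyme that conjugates the small protein SUMO to its targets, and *ubc9-6* is a mutant of it with reduced activity. The 4 groups, with 2 independent replicates each, were heat shocked *ubc9-6*, untreated *ubc9-6*, heat shocked WT and untreated WT. Cultures were grown at 30 °C in SC, a synthetic complete medium, until mid-log, and heat shock was a shift to 37 °C for 12 min. Both strains are haploid W303a, with the parental alleles *ade2-1*, *can1-100*, *his3-11*, *leu2-3_112*, *trp1Δ2* and *ura3-52*. The *ubc9-6* strain is a single strain in which copies of the *ubc9-1* allele stand in tandem at the *UBC9* locus with a *TRP1* marker, so the effects of the allele and of the *TRP1* marker cannot be told apart. Each group has its own input samples, which entered through the peak calling only.

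Yeast takes up sulfate, activates it with ATP, reduces it to sulfide and joins the sulfide to a carbon chain made from aspartate, which gives homocysteine and then methionine. Methionine is turned into SAM, the main methyl donor of the cell, and the homocysteine left over is remade into methionine or turned into cysteine by transsulfuration. The genes are activated by Met4, which has no DNA binding of its own and is brought to promoters by Cbf1 or by Met31 and Met32 with Met28, and Met4 is held in check by the ubiquitin ligase subunit Met30 when sulfur compounds are plentiful.

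For each ORF, the covered share is the share of its base pairs, from start to stop codon, that lie under the peaks of a list, from 0 to 1. An ORF with a covered share of at least 0.5 is called occupied. It is called lost or gained when both lists of one group agree and both lists of the other group are on the other side of that threshold. The 8 lists held 1451 to 1545 peaks each over 23.0 to 25.4% of the genome, and 25.1 to 28.8% of all ORFs were occupied in a list. The study gives only a nominal read depth, equal for every sample, and the depth reached by each library is not known from the files, so an ORF without a peak had no RNAPII detectable by the peak caller, which is not the same as no RNAPII. A peak missing from a list can reflect less RNAPII in every cell or RNAPII in fewer cells, which cannot be told apart.

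The promoter stretches below belong to the 6 genes lost in *ubc9-6* both untreated and after heat shock whose mean covered share differed most, and to 2 genes of the same steps that were neither lost nor gained in any comparison. They are shown because they hold the letters bound by the pathway's own regulators. *SUL2* encodes a sulfate permease, *MET14* adenylylsulfate kinase, *MET22* a bisphosphate nucleotidase and *MET2* homoserine O-acetyltransferase. *MET6*, methionine synthase, stayed fully covered in all 8 lists, though its peak fold differed between groups, and *CBF1* was occupied in none. Each stretch is read from the R64 genome in the 5′ to 3′ direction of the gene and ends 100 to 318 bp before the start codon. It was taken around the matches in the 500 bp before the start codon, with up to 30 bases on each side, so the presence of a match in it is no result. Capitals mark CACGTG, the letters bound by Cbf1, and AACTGTG or CTGTGGC, the letters bound by Met31 and Met32, on either strand. Where AACTGTG and CTGTGGC overlap, they form 1 run of capitals, which reads GCCACAGTT on the other strand.
SUL2 (chrXII:323180-323294, plus strand): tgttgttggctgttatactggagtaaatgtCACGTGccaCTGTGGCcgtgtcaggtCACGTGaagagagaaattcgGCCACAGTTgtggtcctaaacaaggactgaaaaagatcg
MET14 (chrXI:439578-439643, minus strand): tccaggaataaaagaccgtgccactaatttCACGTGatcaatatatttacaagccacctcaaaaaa
MET22 (chrXV:207276-207341, minus strand): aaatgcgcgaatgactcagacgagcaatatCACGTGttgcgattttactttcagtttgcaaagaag
MET2 (chrXIV:116966-117031, plus strand): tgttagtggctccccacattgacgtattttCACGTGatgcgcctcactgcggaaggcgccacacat
MET32 (chrIV:964854-964973, minus strand): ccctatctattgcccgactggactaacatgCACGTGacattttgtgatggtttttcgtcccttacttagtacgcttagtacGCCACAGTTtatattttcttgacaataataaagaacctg
MET30 (chrIX:268444-268526, plus strand): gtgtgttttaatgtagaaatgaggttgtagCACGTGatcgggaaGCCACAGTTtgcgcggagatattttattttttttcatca
MET6 (chrV:342401-342667, minus strand): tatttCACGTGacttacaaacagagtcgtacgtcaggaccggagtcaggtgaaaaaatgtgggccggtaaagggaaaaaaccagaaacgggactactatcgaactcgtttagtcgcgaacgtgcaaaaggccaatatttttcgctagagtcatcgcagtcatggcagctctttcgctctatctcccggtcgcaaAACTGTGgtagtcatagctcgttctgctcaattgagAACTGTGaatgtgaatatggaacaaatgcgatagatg
CBF1 (chrX:548561-548626, plus strand): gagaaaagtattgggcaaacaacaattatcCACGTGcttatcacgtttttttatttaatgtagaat

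In the 6 lost genes these stretches held 1 match to CACGTG each, except *SUL2*, which held 2. Those of *SUL2*, *MET32* and *MET30* also held letters of Met31 and Met32, and those of *MET14*, *MET22* and *MET2* did not. The stretch of *MET6*, neither lost nor gained, held both kinds, and that of *CBF1*, also neither, held CACGTG only. In the window from 250 bp before to 50 bp after the start codon, both strands searched, CACGTG was found for 11 of the 37 genes (29.7%) and for 2.92% of all 6002 ORFs. In the same window AACTGTG was found for 10 genes and 3.40% of ORFs, CTGTGGC for 6 genes and 1.92% of ORFs, and TGACTC, the letters bound by the amino acid regulator Gcn4, for 8 genes and 7.98% of ORFs. The AACTGTG of *MUP1* and the TGACTC of *CYS3* lay inside the ORF, 25 and 1 bp past its first base. A window of 500 bp before the start codon, chosen after the data had been seen, held CACGTG for 24 of the 37 genes and 6.23% of ORFs. In that wider window CACGTG stood before 14 of the 15 genes lost in *ubc9-6* in at least 1 treatment, 5 of the 7 genes occupied in all 8 lists and 2 of the 9 genes occupied in none. Met31 or Met32 letters stood before 8 of those 15, 5 of those 7 and 3 of those 9. These letters therefore occurred before genes that were lost and before genes that were kept, and a match is not a measured binding site.

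Peaks over the sulfur genes were fewer in *ubc9-6*. After heat shock 11 and 10 of the 37 genes were occupied in the replicates of *ubc9-6*, against 25 and 21 in WT. Without heat shock 13 and 13 were occupied in *ubc9-6*, against 28 and 26 in WT. Over all ORFs the corresponding counts were 1651 and 1634 in heat shocked *ubc9-6*, against 1579 and 1505 in heat shocked WT, and 1673 and 1727 in untreated *ubc9-6*, against 1702 and 1652 in untreated WT. Over all ORFs the counts of *ubc9-6* were thus close to or above those of WT, and what lies behind the lower counts of sulfur genes was not tested.

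Untreated, 13 genes were lost in *ubc9-6* of the 26 occupied in both WT lists. They were *SUL2*, *MET3*, *MET14*, *MET16*, *MET22*, *MET5*, *MET10*, *MET8*, *MET2*, *MUP3*, *MET28*, *MET32* and *MET30*. Of all ORFs occupied in both untreated WT lists 18.2% were lost (4.35% of all 6002). The comparison of *ubc9-6* with WT chose the genes. Nothing is therefore read from this count, or from the other counts and differences of *ubc9-6* and WT in this paragraph, against the shares over all ORFs. After heat shock 9 genes were lost of the 20 occupied in both WT lists, namely *SUL2*, *MET14*, *MET16*, *MET22*, *MET2*, *MET17*, *SAM3*, *MET32* and *MET30*, against 12.1% of all ORFs occupied in both heat shocked WT lists (2.7% of all 6002). Without heat shocked WT replicate 2 the count was 14, with *MET3*, *MET5*, *HOM2*, *SAM1* and *STR3* added. No gene of the pathway was gained in *ubc9-6* in either treatment, while 5.55% of all ORFs were gained untreated (8.16% of those occupied in neither WT list) and 4.98% after heat shock (7.02%). Occupied in all 4 WT lists and in no *ubc9-6* list were 7 genes, *SUL2*, *MET14*, *MET16*, *MET22*, *MET2*, *MET32* and *MET30*, against 1.13% of all ORFs, and the reverse held for 0 genes, against 2.57%. The 9 genes *SUL1*, *MET12*, *SAM4*, *MHT1*, *STR2*, *MMP1*, *MET4*, *CBF1* and *MET31* were occupied in none of the 8 lists, against 57% of all ORFs. Each of the 37 had at least some base pairs under a peak in 1 list or more, whereas 30% of all ORFs had none. The median difference in mean covered share, *ubc9-6* minus WT, was -0.077 over the 37 genes untreated and -0.026 after heat shock, and 0 over all ORFs in both. For 10 of the 37 genes all 4 *ubc9-6* values lay below all 4 WT values (5.26% of all ORFs), and for *MET12* alone they lay above (8.36%).

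**Figure D1:**
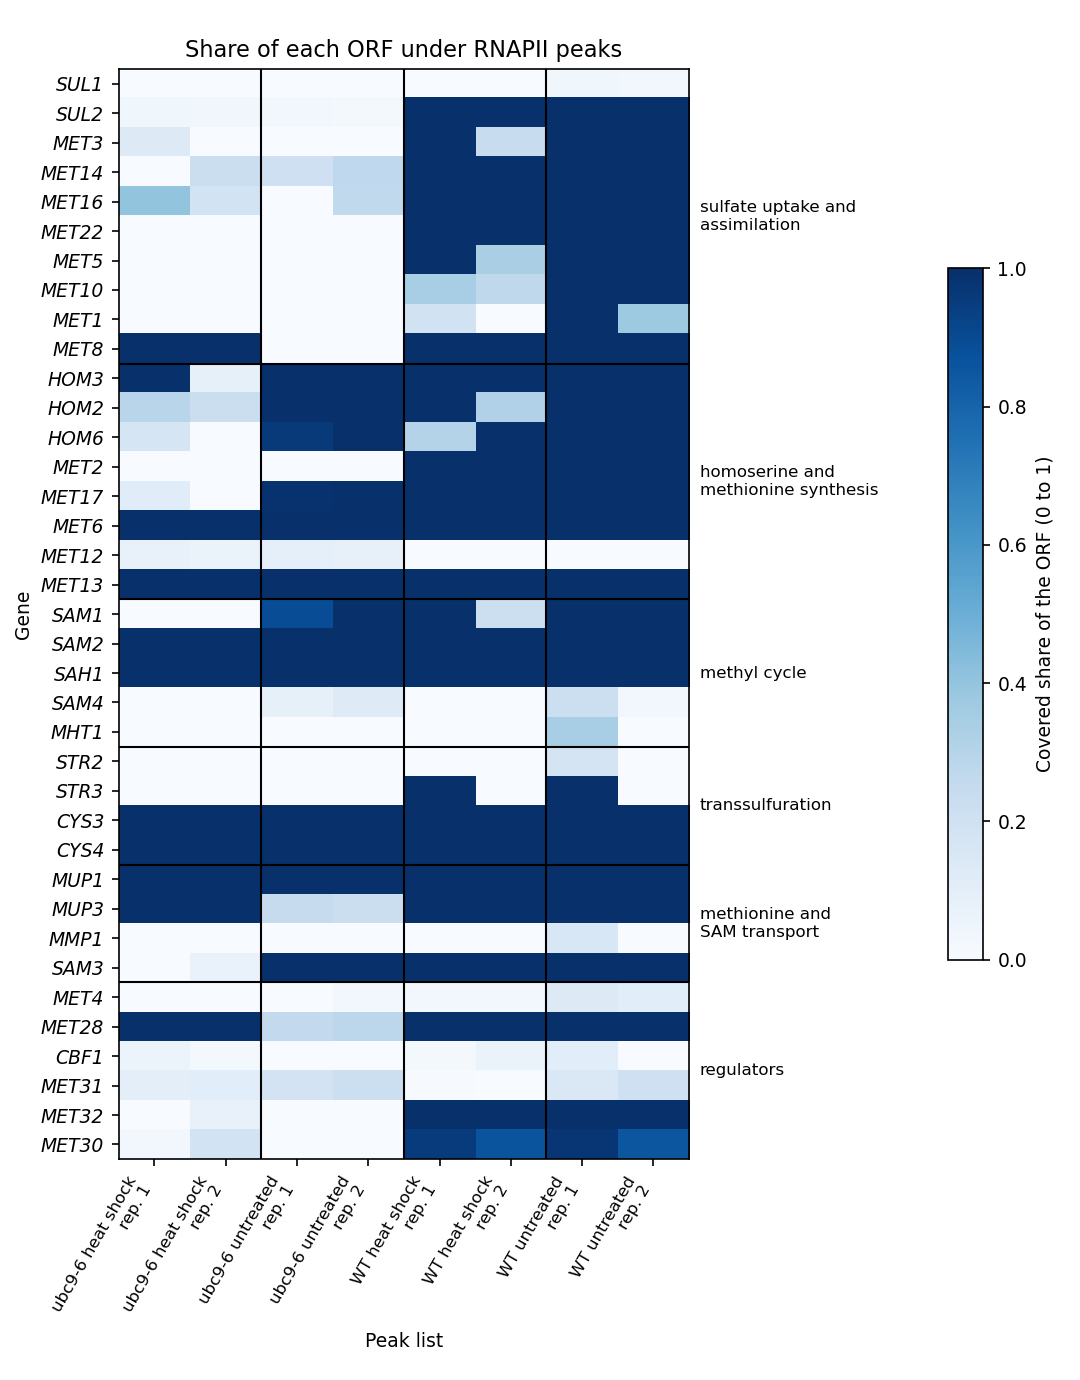
Covered share of the ORF (colour, 0 to 1) for the 37 genes (rows, grouped by step) in the 8 peak lists (columns, 2 replicates for each of 4 groups). Of the 10 sulfate uptake and assimilation genes 9 and 8 were occupied in untreated WT, and 7 and 5 in heat shocked WT. Their rows are pale in *ubc9-6*, where *MET8* alone reached 1 after heat shock. *MET6*, *MET13*, *SAM2*, *SAH1*, *CYS3*, *CYS4* and *MUP1* are at 1 in all 8 lists.

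The covered shares of the 37 genes fell into separate high and low classes. Of the 296 values (37 genes in 8 lists), 147 were at least 0.85 and 149 were at most 0.401. The value just below the threshold was 0.401, for *MET16* in heat shocked *ubc9-6* replicate 1, and the value just above it was 0.852, for *MET30* in untreated WT replicate 2. The replicates of a group fell on different sides of the threshold for 1 gene in heat shocked *ubc9-6*, 0 in untreated *ubc9-6*, 6 in heat shocked WT and 2 in untreated WT.

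Of the 10 sulfate uptake and assimilation genes 1 and 1 were occupied in heat shocked *ubc9-6*, 0 and 0 in untreated *ubc9-6*, 7 and 5 in heat shocked WT, and 9 and 8 in untreated WT. All 8 genes of this step occupied in both untreated WT lists were lost in untreated *ubc9-6*, as were 3 of 3 such regulators. Of all ORFs so occupied 18.2% were lost. This comparison chose the genes, so nothing is read from the counts of a step against that share. Sulfate enters through the permeases Sul1 and Sul2. *SUL2* (YLR092W, chrXII:323544-326225) had covered shares of 0.0362 and 0.0350 in heat shocked *ubc9-6* and 0.0283 and 0.0213 in untreated *ubc9-6*, against 1 in all 4 WT lists. The small *ubc9-6* values came from the edge of the peak over *NYV1*, the neighbour downstream, which was fully covered in all 8 lists. *SUL1* (YBR294W), the other permease, had 0 in all 4 *ubc9-6* lists and in heat shocked WT and 0.0376 and 0.0264 in untreated WT, so it was occupied in none.

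Sulfate is activated by ATP sulfurylase (*MET3*) and by adenylylsulfate kinase (*MET14*), and the product is reduced by PAPS reductase (*MET16*), with Met22 clearing the bisphosphate nucleotide that is left. *MET22* (YOL064C, chrXV:206103-207176) was at 0 in all 4 *ubc9-6* lists and at 1 in all 4 WT lists, and its WT peaks held at least 0.5 of no other ORF. These peaks had folds of 1.62 and 1.41 in heat shocked WT and 2.05 and 1.73 in untreated WT. With the top 1000 peaks of each list its loss after heat shock was no longer called. *MET14* (YKL001C, chrXI:438777-439385) had 0 and 0.220 in heat shocked *ubc9-6* and 0.210 and 0.268 in untreated *ubc9-6*, against 1 in all 4 WT lists. *MET16* (YPR167C, chrXVI:876847-877632) had 0.401 and 0.187 in heat shocked *ubc9-6* and 0 and 0.263 in untreated *ubc9-6*, against 1 in all 4 WT lists. The groups did not overlap for these 3 genes. The *ubc9-6* peak that reached into *MET16* also covered *RHO1* and *MRP2*, which were at 0.951 or more in every list, and stopped inside *MET16*. *MET3* (YJR010W, chrX:456239-457774) had 0.126 and 0 in heat shocked *ubc9-6* and 0 and 0 in untreated *ubc9-6*, against 1 and 0.241 in heat shocked WT and 1 and 1 in untreated WT. Its 0.241 covered the first part of the ORF only, with a share of 0.482 of its 5′ part (the first 0.5 of the ORF) and 0 of its 3′ part under the peak.

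Sulfite is reduced to sulfide by sulfite reductase, a complex of Met5 and Met10 that uses siroheme, which is made by Met1 and Met8. *MET5* (YJR137C) was at 0 in all 4 *ubc9-6* lists, against 1 and 0.338 in heat shocked WT and 1 and 1 in untreated WT. *MET10* (YFR030W, chrVI:213312-216419) was at 0 in all 4 *ubc9-6* lists, against 0.347 and 0.270 in heat shocked WT and 1 and 1 in untreated WT. *MET10* was thus the one gene of the 37 lost on heat shock in both WT replicates. The heat shocked WT peaks covered 0.694 and 0.541 of the 5′ part of *MET10* and 0 of its 3′ part in both replicates. *MET1* (YKR069W), a methyltransferase of siroheme synthesis, was at 0 in all 4 *ubc9-6* lists, against 0.190 and 0 in heat shocked WT and 1 and 0.373 in untreated WT, so the untreated WT replicates disagreed. The last enzyme of siroheme synthesis is encoded by *MET8* (YBR213W, chrII:650368-651192), which was at 1 and 1 in heat shocked *ubc9-6* and 0 and 0 in untreated *ubc9-6*, against 1 in all 4 WT lists. *MET8* was therefore lost untreated and not after heat shock. Its neighbour *SDS24*, under the same peaks, had the same values in all 8 lists, so the peak cannot be assigned to either gene.

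**Figure D2:**
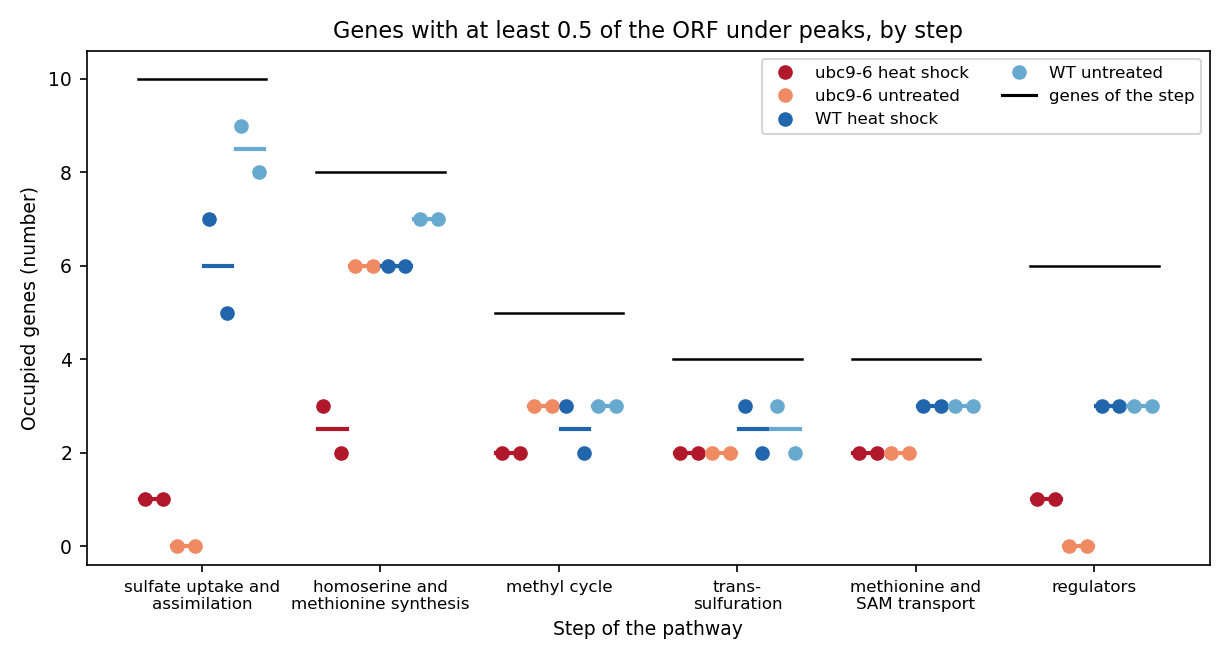
Number of occupied genes (y axis, dots for the 2 lists of each group, coloured bars for their mean) at each step of the pathway (x axis), with a black line at the number of genes in the step. Sulfate uptake and assimilation ranged from 0 to 1 of 10 in *ubc9-6* and from 5 to 9 of 10 in WT, and transsulfuration was at 2 of 4 in every *ubc9-6* list and at 2 or 3 of 4 in WT.

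The carbon chain of methionine is made from aspartate by aspartate kinase (*HOM3*), aspartic semialdehyde dehydrogenase (*HOM2*) and homoserine dehydrogenase (*HOM6*), and these genes were occupied in untreated *ubc9-6*. *HOM3* (YER052C) had 1 and 0.084 in heat shocked *ubc9-6* and 1 and 1 in untreated *ubc9-6*, against 1 in all 4 WT lists. *HOM2* (YDR158W) had 0.291 and 0.220 in heat shocked *ubc9-6* and 1 and 1 in untreated *ubc9-6*, against 1 and 0.320 in heat shocked WT and 1 and 1 in untreated WT. *HOM6* (YJR139C) had 0.165 and 0 in heat shocked *ubc9-6* and 0.960 and 1 in untreated *ubc9-6*, against 0.308 and 1 in heat shocked WT and 1 and 1 in untreated WT. *HOM2* and *HOM6* were lost on heat shock in both *ubc9-6* replicates and in 1 of the 2 WT replicates each. The *HOM2* peak also covered *CPR1*, a nearby cyclophilin gene, which was fully covered in all 8 lists, whereas the *HOM6* peaks held at least 0.5 of no other ORF. The *HOM6* peaks of untreated *ubc9-6* were weak, with folds of 1.30 and 1.24 and a −log10 q of 2.57 and 2.05, against folds of 1.55 and 1.65 and a −log10 q of 10.5 and 11.3 in untreated WT. With only peaks of −log10 q of at least 5, or with the top 1000 peaks of each list, *HOM6* was lost in *ubc9-6* already untreated, and its loss on heat shock there was no longer called.

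Homoserine is acetylated by Met2, joined to sulfide by Met17 (O-acetylhomoserine sulfhydrylase) and methylated to methionine by Met6. *MET2* (YNL277W, chrXIV:117349-118809) was at 0 in all 4 *ubc9-6* lists and at 1 in all 4 WT lists. Its neighbour *YNL277W-A*, under the same WT peaks, had the same values in all 8 lists, so the peak cannot be assigned to either gene. *MET17* (YLR303W, chrXII:732542-733876) had 0.114 and 0 in heat shocked *ubc9-6* and 0.989 and 1 in untreated *ubc9-6*, against 1 in all 4 WT lists. *MET17* was thus lost in *ubc9-6* after heat shock only, while its neighbour *ACO1* was fully covered in all 8 lists. The untreated peaks over *MET17*, which also held *ACO1*, had folds of 2.76 and 2.71 in *ubc9-6* against 5.42 and 5.54 in WT. *MET13*, methylenetetrahydrofolate reductase, was at 1 in all 8 lists. The related *MET12* had 0.0729 and 0.0633 in heat shocked *ubc9-6* and 0.0922 and 0.0811 in untreated *ubc9-6*, against 0 in all 4 WT lists, and was occupied in none.

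In the methyl cycle the SAM synthetase genes differed from each other. *SAM1* (YLR180W, chrXII:515262-516410) had 0 and 0 in heat shocked *ubc9-6* and 0.887 and 1 in untreated *ubc9-6*, against 1 and 0.218 in heat shocked WT and 1 and 1 in untreated WT. *SAM2* (YDR502C), its paralog, and *SAH1* (YER043C), which hydrolyses S-adenosylhomocysteine, were at 1 in all 8 lists. *SAM1* was lost on heat shock in both *ubc9-6* replicates and in 1 WT replicate. The homocysteine methyltransferase genes *SAM4* and *MHT1* were occupied in none, with shares of at most 0.216 and 0.346. *SAM4* was reached by the end of the peak over its neighbour *SAM3* in the untreated lists only.

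In transsulfuration *CYS3* (YAL012W), cystathionine gamma-lyase, and *CYS4* (YGR155W), cystathionine beta-synthase, were at 1 in all 8 lists. These enzymes make cysteine from homocysteine. For the reverse direction, *STR3*, cystathionine beta-lyase, was at 0 in all 4 *ubc9-6* lists, against 1 and 0 in heat shocked WT and 1 and 0 in untreated WT. *STR2*, cystathionine gamma-synthase, had 0.177 in untreated WT replicate 1 and 0 in the other 7 lists. The WT replicates disagreed in *STR3*, so it was neither lost nor gained.

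Among the transporters *MUP1* (YGR055W), the high-affinity methionine permease, was at 1 in all 8 lists. *MUP3* (YHL036W, chrVIII:26241-27881), a methionine permease of low affinity, had 1 and 1 in heat shocked *ubc9-6* and 0.245 and 0.221 in untreated *ubc9-6*, against 1 in all 4 WT lists. *SAM3* (YPL274W, chrXVI:22938-24701), the SAM permease, had 0 and 0.0692 in heat shocked *ubc9-6* and 1 and 1 in untreated *ubc9-6*, against 1 in all 4 WT lists. By covered share *MUP3* was thus lost untreated only and *SAM3* after heat shock only. The peaks over *SAM3* were already lower in untreated *ubc9-6*, with folds of 1.91 and 1.67 against 3.87 and 3.37 in untreated WT. The untreated *ubc9-6* peak at *MUP3* lay over the last part of the ORF. *MMP1*, the S-methylmethionine permease, had 0.155 in untreated WT replicate 1 and 0 in the other 7 lists.

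Among the regulators, the genes of the activator *MET4* and of *CBF1* and *MET31* had no peak of their own. *MET4* reached at most 0.133, *CBF1* at most 0.108 and *MET31* at most 0.215, and each such share came from the edge of a peak over a neighbour. These neighbours were *LEU4* for *MET4*, *PTK2* for *CBF1* and *EGD1* for *MET31*. *MET32* (YDR253C, chrIV:963990-964565), a zinc finger protein that brings Met4 to promoters, had 0 and 0.0712 in heat shocked *ubc9-6* and 0 and 0 in untreated *ubc9-6*, against 1 in all 4 WT lists. *MET30* (YIL046W, chrIX:268651-270573), the F-box protein that restrains Met4, had 0.026 and 0.185 in heat shocked *ubc9-6* and 0 and 0 in untreated *ubc9-6*, against 0.953 and 0.862 in heat shocked WT and 0.976 and 0.852 in untreated WT. *MET28* (YIR017C, chrIX:383556-384119), a Met4 cofactor, had 1 and 1 in heat shocked *ubc9-6* and 0.261 and 0.280 in untreated *ubc9-6*, against 1 in all 4 WT lists. For *MET32* and *MET30* the *ubc9-6* and WT values did not overlap, and *MET28* was lost untreated only. Genes for both the positive and the negative regulation of the pathway were thus among those lost in *ubc9-6*. WT peaks over *MET32* had folds of 1.53 and 1.39 after heat shock and 1.56 and 1.47 untreated. Those over *MET30* had 1.76 and 1.88 after heat shock and 1.47 and 1.33 untreated. The heat shocked WT peaks over *MET30* also held *PIG2*, at 1 and 1 there and at 0.0371 and 0.00804 in heat shocked *ubc9-6*. Those peaks therefore cannot be assigned to either gene. The *MET30* peak of untreated WT replicate 1 held 6 other ORFs, and that of replicate 2 held none. The WT *MET32* peaks also held *CHL4*, which was occupied in every list, and *RMD5*. *RMD5* was at 0.443 and 0.447 in untreated *ubc9-6* against 1 and 1 in untreated WT, so it was lost untreated like *MET32*. After heat shock it was occupied in both strains. The heat shocked WT peaks also held *BTT1*, at 1 and 1 there and at 0.224 and 0.144 in heat shocked *ubc9-6*. The *MET28* peaks also held *RPR2* and *YIR016W*, at 1 in every list. With only peaks of −log10 q of at least 5, *MET30* was not lost untreated and *MET32* not after heat shock.

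**Figure D3:**
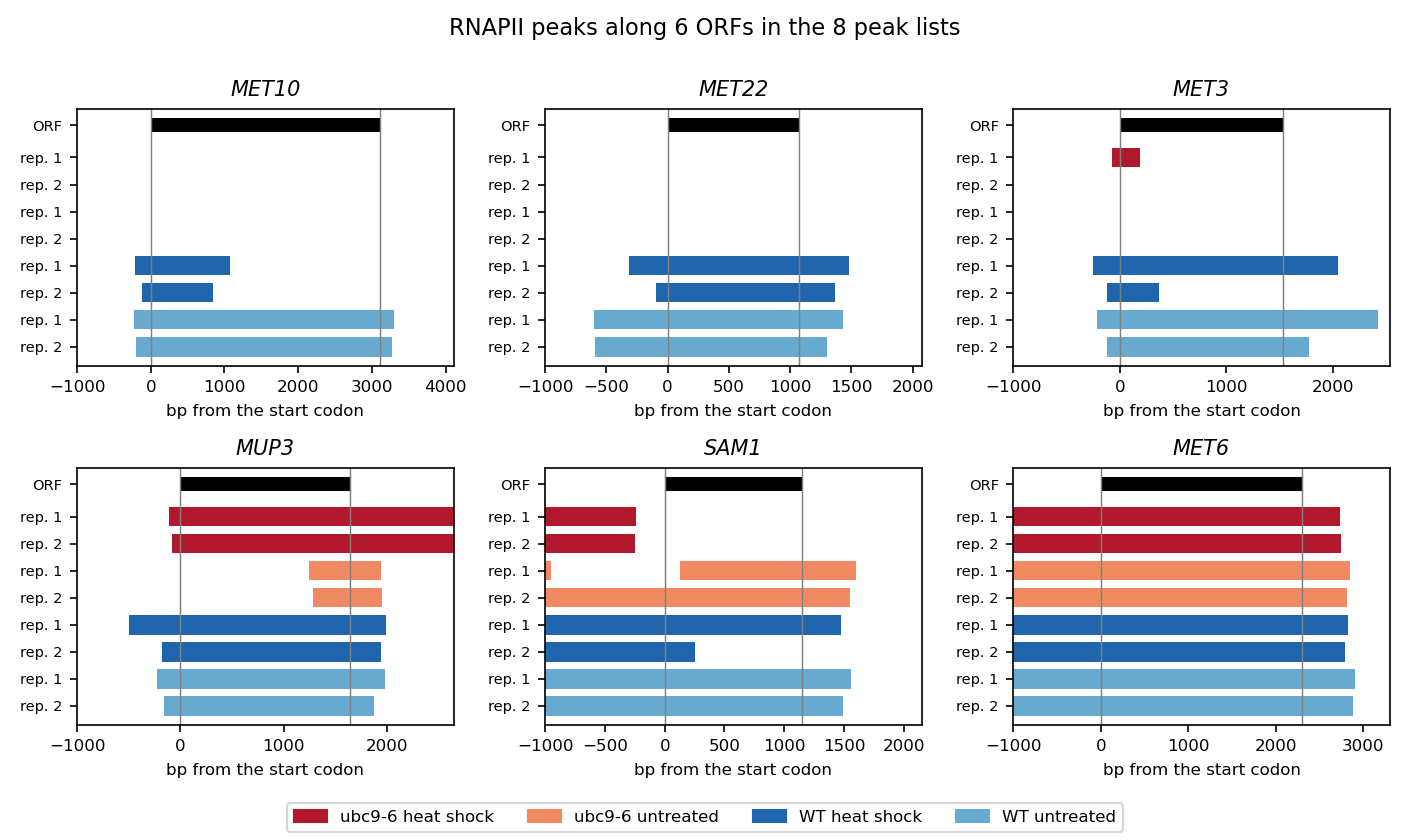
Peaks (coloured bars) of the 8 lists along 6 ORFs (black bar) in bp from the start codon, drawn from 1000 bp before the ORF to 1000 bp after it. The rows run from heat shocked *ubc9-6* at the top to untreated WT at the bottom, with 2 replicates each, and *MET10* and *MET22* have no peak in *ubc9-6* while *MET6* is covered in all 8 rows.

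Heat shock was set against the untreated state within each strain. Both contrasts share lists with the comparison that chose the genes, so their counts are not independent of that choice. Nothing is read from these counts against the shares over all ORFs. In *ubc9-6* heat shock went with 5 losses among the 13 genes occupied in both untreated lists, *HOM2*, *HOM6*, *MET17*, *SAM1* and *SAM3*, and 15.5% of all ORFs so occupied were lost (3.98% of all 6002). It went with 3 gains among the 24 genes occupied in neither untreated list, *MET8*, *MUP3* and *MET28*, and 4.76% of all such ORFs were gained (3.28% of all 6002). In WT heat shock went with 1 loss, *MET10*, among the 26 genes occupied in both untreated lists. Of all such ORFs 7.33% were lost (1.75% of all 6002). There were 0 gains among the 9 genes occupied in neither untreated WT list, and 1.35% of all such ORFs were gained (0.916% of all 6002). In heat shocked *ubc9-6*, *MET8*, *MUP3* and *MET28* were covered to the same share as in WT, while *MET17* and *SAM3* were not. Their peak folds were still lower than in heat shocked WT. They were 1.88 and 1.77 against 2.66 and 2.67 for *MET8*, and 1.91 and 1.99 against 3.87 and 3.03 for *MUP3*. For *MET28* they were 1.88 and 1.79 against 2.63 and 2.37. The *MUP3* peak of heat shocked *ubc9-6* replicate 2 also held *VMR1*, *SBP1* and *RPL8A*. The count of losses in WT depended on single replicates. Without heat shocked WT replicate 1 the count was 5, with *MET3*, *MET5*, *HOM2* and *SAM1* added, and without replicate 2 it was 2, with *HOM6* added. Without untreated WT replicate 2 it was also 2, with *MET1* added.

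Each gene was also tested for a heat shock difference over both strains, with an exact two-sided permutation test that exchanged labels within strain. With 2 lists a group the 36 arrangements allow no p below 0.0556, and within 1 strain no p below 0.333, so no gene could pass 0.05. The same test over all 6002 ORFs put 5.38% of them at 0.0556, and its Benjamini-Hochberg adjusted p over all ORFs was 1 for each of the 37 genes. Among the 37 genes *SAM4* and *MET31* reached the smallest p of 0.0556. Both genes were at the edge of a neighbour's peak, with mean shares of 0 after heat shock and 0.112 untreated for *SAM4*, and of 0.0529 and 0.188 for *MET31*, and neither was occupied in any list. The differences were larger for *SAM1*, *HOM6* and *HOM2*. Over both strains *SAM1* averaged 0.305 after heat shock and 0.972 untreated, *HOM6* 0.368 and 0.990, and *HOM2* 0.458 and 1. The differences, heat shock minus untreated, were -0.67 for *SAM1*, -0.62 for *HOM6* and -0.54 for *HOM2*, each with an exact permutation p of 0.167. In each of these 3 genes 1 of the 2 heat shocked WT replicates was at 1.

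Genes that kept full coverage in all 8 lists could still differ in peak height. The 7 such genes are *MET6*, *MET13*, *SAM2*, *SAH1*, *CYS3*, *CYS4* and *MUP1*, against 13.9% of all ORFs. Fold enrichment over input is the peak caller's mean over the whole peak, so it depends on the depth of a library and on neighbours under the same peak, and it is given as a description. *MET6* (YER091C, chrV:339864-342167) lay under peaks of 1.80- and 1.65-fold in heat shocked *ubc9-6* and 3.06- and 2.55-fold in untreated *ubc9-6*, against 6.76- and 5.70-fold in heat shocked WT and 10.8- and 8.92-fold in untreated WT. Ordered by fold within each list, its peak held place 536 and 627 in heat shocked *ubc9-6* and 210 and 280 in untreated *ubc9-6*, against 42 and 54 in heat shocked WT and 5 and 12 in untreated WT. The methionine synthase gene was thus among the most enriched regions of untreated WT and was in the middle ranks of heat shocked *ubc9-6*. *IES5* lay under the same peak in every list.

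*MUP1* had peaks of 2.71- and 2.70-fold in heat shocked *ubc9-6* and 2.65- and 2.64-fold in untreated *ubc9-6*, against 7.11- and 3.32-fold in heat shocked WT and 8.91- and 5.16-fold in untreated WT. *CYS3*, whose peak held no other ORF in any list, had 1.78- and 1.78-fold in heat shocked *ubc9-6* and 1.83- and 1.70-fold in untreated *ubc9-6*, against 2.83- and 2.13-fold in heat shocked WT and 3.47- and 2.29-fold in untreated WT. For 5 of the 7 genes (*MET6*, *MUP1*, *CYS3*, *SAM2* and *MET13*) all 4 *ubc9-6* folds lay below all 4 WT folds, and this held for 23.7% of the 837 ORFs occupied in all 8 lists. The median fold of those 837 ORFs was itself lower in *ubc9-6*, at 2.25 and 2.22 after heat shock and 2.04 and 2.00 untreated, against 2.38 and 2.42 in heat shocked WT and 2.36 and 2.31 in untreated WT. On heat shock both folds fell below both untreated folds for *MET6*, *SAM2* and *SAH1* in *ubc9-6* (31.5% of the 837 ORFs) and for the same 3 genes in WT (17.3%). The replicates of WT differed widely for *MUP1*, where the lower heat shocked fold was 3.32 and the higher 7.11.

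**Figure D4:**
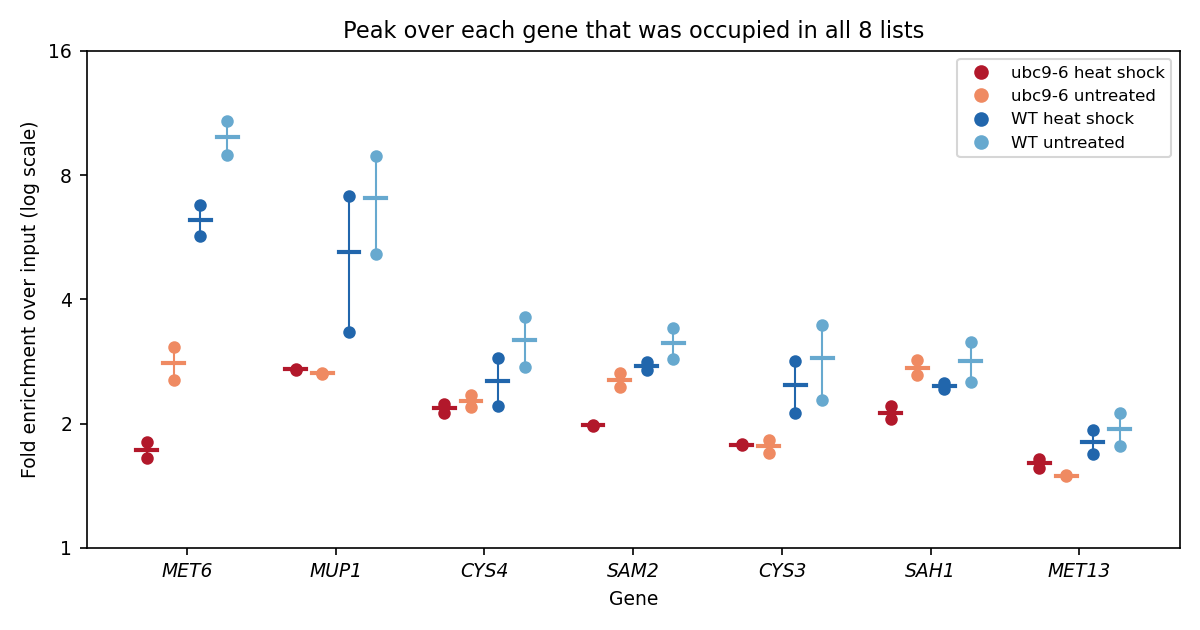
Fold enrichment over input of the peak over each of the 7 genes occupied in all 8 lists (y axis, log scale), with a dot for each of the 2 lists of a group and a bar at their mean. *MET6* and *MUP1* show the widest gap, with *MET6* between 1.65 and 3.06 in *ubc9-6* and between 5.70 and 10.8 in WT.

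A further list held 18 related sulfur and folate genes. Among them were genes of glutathione synthesis, methionine salvage, folate-dependent one-carbon metabolism, sulfur compound transport and threonine synthesis. Untreated, 5 of the 7 occupied in both WT lists were lost in *ubc9-6* (18.2% of all ORFs so occupied), and none of the 18 was gained (8.16% of all ORFs occupied in neither WT list). *GSH1*, gamma-glutamylcysteine synthetase and the first enzyme of glutathione synthesis, was at 0 in all 4 *ubc9-6* lists, against 1 and 0.507 in heat shocked WT and 1 and 1 in untreated WT. *OPT1*, an oligopeptide and glutathione transporter, was at 0 in all 4 *ubc9-6* lists, against 1 and 1 in heat shocked WT and 1 and 0.778 in untreated WT. *GSH2*, *MDE1* and *THR1* made up the rest of the losses untreated. After heat shock *GSH1* and *OPT1* were lost of the 4 occupied in both WT lists (12.1% of all ORFs so occupied), and *UTR4*, of methionine salvage, was gained (7.02% of all ORFs occupied in neither WT list).

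Genes of other amino acid pathways were also lost. Untreated, *ubc9-6* lost 1 of 3 lysine synthesis genes occupied in both WT lists, 2 of 6 of arginine synthesis and 0 of 2 of histidine synthesis. Over all ORFs so occupied 18.2% were lost. After heat shock it lost 1 of 1 lysine, 2 of 4 arginine and 1 of 2 histidine genes, against 12.1% of all ORFs so occupied. On heat shock in *ubc9-6* itself, 3 of 3 lysine genes and 2 of 4 arginine genes were lost, and 0 of 1 histidine genes, against 15.5% of all ORFs occupied in both untreated *ubc9-6* lists. These lists are small and were not tested against the sulfur genes.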

How the data were processed

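RNAPII ChIP-seq peak lists of 8 immunoprecipitated samples were analyzed, 2 replicates for each of 4 groups. The 8 input samples have no peak list and were used by the authors as controls only. As the methods of the study state, the authors trimmed paired-end reads, aligned them to sacCer3 with Bowtie2 (version 2.3.5) and called broad peaks for each replicate with MACS2 (version 2.1.1.20160309) at a q-value cut-off of 0.1. Per peak, the deposited lists hold both ends, the fold enrichment over input (a ratio) and the −log10 of its p-value and q-value, per the authors' peak caller. Peaks depend on read depth, which the study gives as a nominal value only, so weak regions can be missed. The study's own comparison used reads over ORFs, which the lists do not hold.

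Covered shares were computed in Python (version 3.11.15, with numpy 2.4.6) over the ORFs of the R64 annotation, the assembly that UCSC names sacCer3, and no peak ran past the end of its 16 nuclear chromosomes. The list was the unit of replication (n = 2 per group). A covered share of 0.5 counted as occupied. ORFs sharing a peak with a neighbour cannot be told apart. Single genes were tested by exact permutation. Alternatives were thresholds of 0.25 and 0.75, peaks with −log10 q of at least 5, the top 1000 peaks of each list, a window from 250 bp before the start codon, and each replicate left out. The 37 genes and the related lists were chosen with earlier results of these data known. Every gene of the list is given in the text, at least by its range, with values in every list for those that were lost or gained. The promoters printed of genes neither lost nor gained, *MET6* and *CBF1*, were picked after their values were seen. Of 9 arginine genes 8 matched by symbol.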

Additional observations from a re-analysis of the deposited data

How the results depend on the processing

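Under the 5 alternatives of threshold, peak filter and window, the count of sulfur genes lost in *ubc9-6* was 11 to 13 untreated (13 reported) and 7 to 11 after heat shock (9 reported), the count lost on heat shock in *ubc9-6* was 4 to 5 (5 reported) and gained 2 to 3 (3 reported), and the count lost on heat shock in WT stayed at 1, though at a threshold of 0.25 it was *MET1* in place of *MET10*. All stayed within 1.5 times the reported count. At a threshold of 0.25 *MET14*, *MET16* and *MET28* were not lost in *ubc9-6* untreated and *MET1* was; after heat shock *MET16* was not lost and *MET5*, *MET10* and *HOM6* were; and on heat shock in *ubc9-6* *HOM2* was not lost and *MET28* not gained. With peaks of −log10 q of at least 5, and with the top 1000 peaks, *HOM6* was lost untreated in place of *MET30*, and after heat shock *MET32* was not lost. *MET22* was also not lost after heat shock with the top 1000 peaks. No gene was gained in *ubc9-6* against WT under any of these. Of the differences in mean covered share of lost or gained genes under all alternatives, 167 moved by no more than the spread between replicates and 50 by more. No difference of a lost or gained gene reversed, but that of *HOM6* on heat shock in *ubc9-6* went to 0 with the −log10 q filter and with the top 1000 peaks, which keep no peak over it in *ubc9-6*.

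Leaving out 1 replicate gave 13 to 15 genes lost in *ubc9-6* untreated and 9 to 14 after heat shock, 5 to 6 lost and 3 to 3 gained on heat shock in *ubc9-6*, and 1 to 5 lost on heat shock in WT. The 14 came without heat shocked WT replicate 2, which added *MET3*, *MET5*, *HOM2*, *SAM1* and *STR3*, and the 5 without heat shocked WT replicate 1. The counts of 0 gained stayed at 0.

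By their labels, replicates of different groups share only a number, and the labels do not say whether replicates of the same number were handled together. The deviations of replicate 1 from its group mean, over all ORFs, correlated at 0.34 between untreated and heat shocked WT and between -0.01 and 0.05 for the other 5 pairs of groups. With the replicate number as a block, the heat shock differences over both strains were the same, and the exact permutation p had 16 arrangements and a smallest value of 0.125, which *SAM4* (-0.11) and *MET31* (-0.14) reached. The lists hold no read depth, so no counting interval could be given for a covered share, and 2 lists a group limit every test.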

Other observations

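Several neighbours of the sulfur genes had the same pattern of peaks as the gene beside them. *DID4*, an ESCRT subunit gene beside *MET14*, was at 0 in all 4 *ubc9-6* lists and at 1 in all 4 WT lists. *MRP17*, a mitochondrial ribosomal protein gene under the same WT peak, had 0 and 0.0505 in heat shocked *ubc9-6* and 0.0227 and 0 in untreated *ubc9-6*, against 1 and 0.583 in heat shocked WT and 0.710 and 1 in untreated WT. *GEP5*, upstream of *SUL2*, was at 0 in all 4 *ubc9-6* lists and at 1 in all 4 WT lists, while *NYV1* on the other side of *SUL2* was at 1 in all 8. *ADI1*, of methionine salvage, is no such neighbour and belongs to the list of related sulfur and folate genes. Its shares were 0.641 and 0 in heat shocked *ubc9-6* and 0.648 and 0 in untreated *ubc9-6*, against 1 in all 4 WT lists. It was therefore not called lost.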
